A study of Mus musculus with 4 samples.

Results

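The small leucine-rich proteoglycans are secreted matrix proteins, and 9 of their genes, Dcn, Lum, Ogn, Fmod, Bgn, Prelp, Omd, Aspn and Podn, were followed through photothrombotic (PT) injury of the mouse cortex, in which light clots the vessels of a small cortical area. The 9 genes were taken by symbol from the 32285 genes of the count tables, by a rule that sets no threshold on their values. Transcripts had been counted on Visium slides, where each spot captures polyadenylated RNA from a small patch of tissue that can hold several cells. There were 8 slices from 8 mice on 4 capture areas, 2 slices to an area. The wild-type (WT) slices comprised 1 at rest and 1 at 2 days post injury (dpi), which shared an area, 2 at 7 dpi and 2 at 21 dpi. The other 2 slices, also at 21 dpi, came from Cthrc1(creER); R26(DTA) mice, called deleter mice, in which a drug-inducible Cre driven from the Cthrc1 gene is meant to switch on diphtheria toxin in myofibroblasts. The study set these mice aside because no deletion could be detected. The methods give mice of both sexes, 7 to 21 weeks old, as the default for all experiments. The other groups are labelled WT. Tamoxifen, which switches on the inducible Cre, was injected in corn oil by the methods, and its schedule for the mice of these slices is not given in the sources used here.

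The slices held 827 to 1726 spots and 11332780 to 23677298 unique molecular identifiers (UMIs, 1 for each captured transcript). The median was 2633.5 UMIs per spot at 2 dpi and 12447 to 16158 in the other 7 slices. A spot was called fibrotic when it held at least 5 UMIs of Col1a1, the main fibrillar collagen gene, per 10000 UMIs of the spot, and Col1a1-free when it held none. At 7 dpi 112 and 392 spots were fibrotic (11.5% and 41.4% of the slice), at 21 dpi 170 and 203, and in the deleter slices 193 and 274. Only 3 spots at rest and 26 at 2 dpi met the rule, and 17 of the 26 did so with a single Col1a1 UMI, so these slices were kept out of tests of fibrotic spots. Fibrotic spots carried every one of the 5 fibroblast markers in all 6 later slices, and the 4 neuron genes examined all fell in them. The rule uses Col1a1 alone and does not separate the scar from meninges at the tissue surface. Of the fibrotic spots at 7 dpi, 93.8% and 31.9% lay in the outer 2 rings of spots along the tissue edge. The shares were 53.5% and 39.9% at 21 dpi and 51.8% and 39.8% in the deleter slices. Levels are UMIs of a gene per 10000 UMIs of the spots concerned. UMIs mark transcript ends and are not scaled for length, so levels were compared within a gene and not between genes. In such spots, more cells that make a transcript and more transcript per cell cannot be told apart.

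The proteins share a core of leucine-rich repeats, a curved structure that binds collagen fibrils and limits how thick they grow, and most carry sulfated sugar chains. Decorin (Dcn) and biglycan (Bgn) carry chondroitin or dermatan sulfate, and asporin (Aspn) is their relative without such a chain. Lumican (Lum), fibromodulin (Fmod), prolargin (Prelp) and osteomodulin (Omd) form the class that can carry keratan sulfate, osteoglycin (Ogn) belongs to another class, and podocan (Podn) to a more distant one. In the brain several of these genes are known from the fibroblasts of the meninges and of vessel walls. Several of the proteins bind transforming growth factor beta, and biglycan is also known as a ligand of Toll-like receptors.

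Most members lie close to relatives in the genome. In GRCm38, Dcn lies at chr10:97479609-97518143 and Lum 46984 bases away at chr10:97565128-97572703. Aspn (chr13:49544443-49567565), Omd (chr13:49582462-49592822) and Ogn (chr13:49608046-49624501) follow one another on the forward strand, with 14896 and 15223 bases between them. Prelp (chr1:133910304-133921414, reverse strand) and Fmod (chr1:134037254-134048277) are 115839 bases apart. Bgn lies on the X chromosome (chrX:73483602-73495933) and Podn alone on chromosome 4 (chr4:108014791-108096445, reverse strand).

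The promoters of the neighbours Aspn, Omd and Ogn are set beside that of Bgn, whose level followed Col1a1 most closely. These neighbours had the largest fitted differences between outer and inner fibrotic spots among the members (below). Fmod, on chromosome 1, was almost equal to Ogn in this (1.99 and 2.02), so the trait is not particular to the neighbours. The promoter of Fmod is not shown and held neither of the 2 sets of letters searched. RefSeq promoters of 300 bases (GRCm38.p6, 250 before the start and 50 from it on) were at hand for 7 of the 9 members, not for Dcn and Lum. All 4 shown are on the forward strand. Capitals mark the TATA box letters TATAAA or the GC box letters GGGCGG, searched on both strands (TTTATA and CCGCCC on the other).
Aspn, chr13:49544193-49544492: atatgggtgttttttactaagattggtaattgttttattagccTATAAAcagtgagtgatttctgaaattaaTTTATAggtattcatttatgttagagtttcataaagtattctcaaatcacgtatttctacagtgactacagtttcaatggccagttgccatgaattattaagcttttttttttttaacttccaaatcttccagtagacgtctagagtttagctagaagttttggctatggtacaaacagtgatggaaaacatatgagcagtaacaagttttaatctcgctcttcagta
Omd, chr13:49582212-49582511: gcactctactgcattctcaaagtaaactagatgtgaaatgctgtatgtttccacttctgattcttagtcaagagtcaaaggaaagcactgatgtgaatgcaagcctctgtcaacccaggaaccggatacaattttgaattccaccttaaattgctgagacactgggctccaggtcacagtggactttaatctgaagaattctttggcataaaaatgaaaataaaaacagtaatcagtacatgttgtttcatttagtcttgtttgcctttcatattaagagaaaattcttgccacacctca
Ogn, chr13:49607765-49608064: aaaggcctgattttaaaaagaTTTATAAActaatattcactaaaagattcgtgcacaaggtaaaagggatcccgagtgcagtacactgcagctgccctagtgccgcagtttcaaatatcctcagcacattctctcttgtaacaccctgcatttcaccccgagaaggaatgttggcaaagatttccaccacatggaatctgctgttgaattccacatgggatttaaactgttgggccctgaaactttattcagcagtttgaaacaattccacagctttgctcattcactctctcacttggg
Bgn, chrX:73483351-73483650: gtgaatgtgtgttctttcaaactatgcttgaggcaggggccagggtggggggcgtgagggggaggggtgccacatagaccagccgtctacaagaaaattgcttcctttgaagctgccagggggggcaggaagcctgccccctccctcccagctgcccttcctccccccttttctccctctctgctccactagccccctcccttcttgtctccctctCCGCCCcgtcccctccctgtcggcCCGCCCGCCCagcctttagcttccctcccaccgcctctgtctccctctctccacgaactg
TATAAA on either strand was present in Aspn (at -207 and -178 from the start) and Ogn (at -229 and -227, overlapping on opposite strands) among the 7 members, and in 13.6% of 32817 mouse promoters. GGGCGG was present in Bgn (at -34, -10 and -6, the last pair overlapping) and Podn, and in 35.6% of all promoters. These are matches of letters and not tested sites.

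All 9 members were higher in fibrotic than in Col1a1-free spots of the same slices. The question was how far these genes follow collagen-rich spots, and 6 slices with fibrotic tissue, at 7 and 21 dpi, were compared, each against itself. Dcn held 5.11 and 4.55 UMIs per 10000 in the fibrotic spots of 7 dpi slices 1 and 2, 15.9 and 12.2 at 21 dpi, and 14.4 and 12.7 in the deleter slices. In the Col1a1-free spots it held 0.125 to 0.344. Every fibrotic value was more than 10 times the Col1a1-free value of its own slice, and the lowest fold of the 6 slices was 20.6. The fitted log2 fold change of Dcn was 5.57 (SE 0.28, adjusted p = 5.88e-07, edgeR's quasi-likelihood test over 14477 genes).

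**Figure D1:**
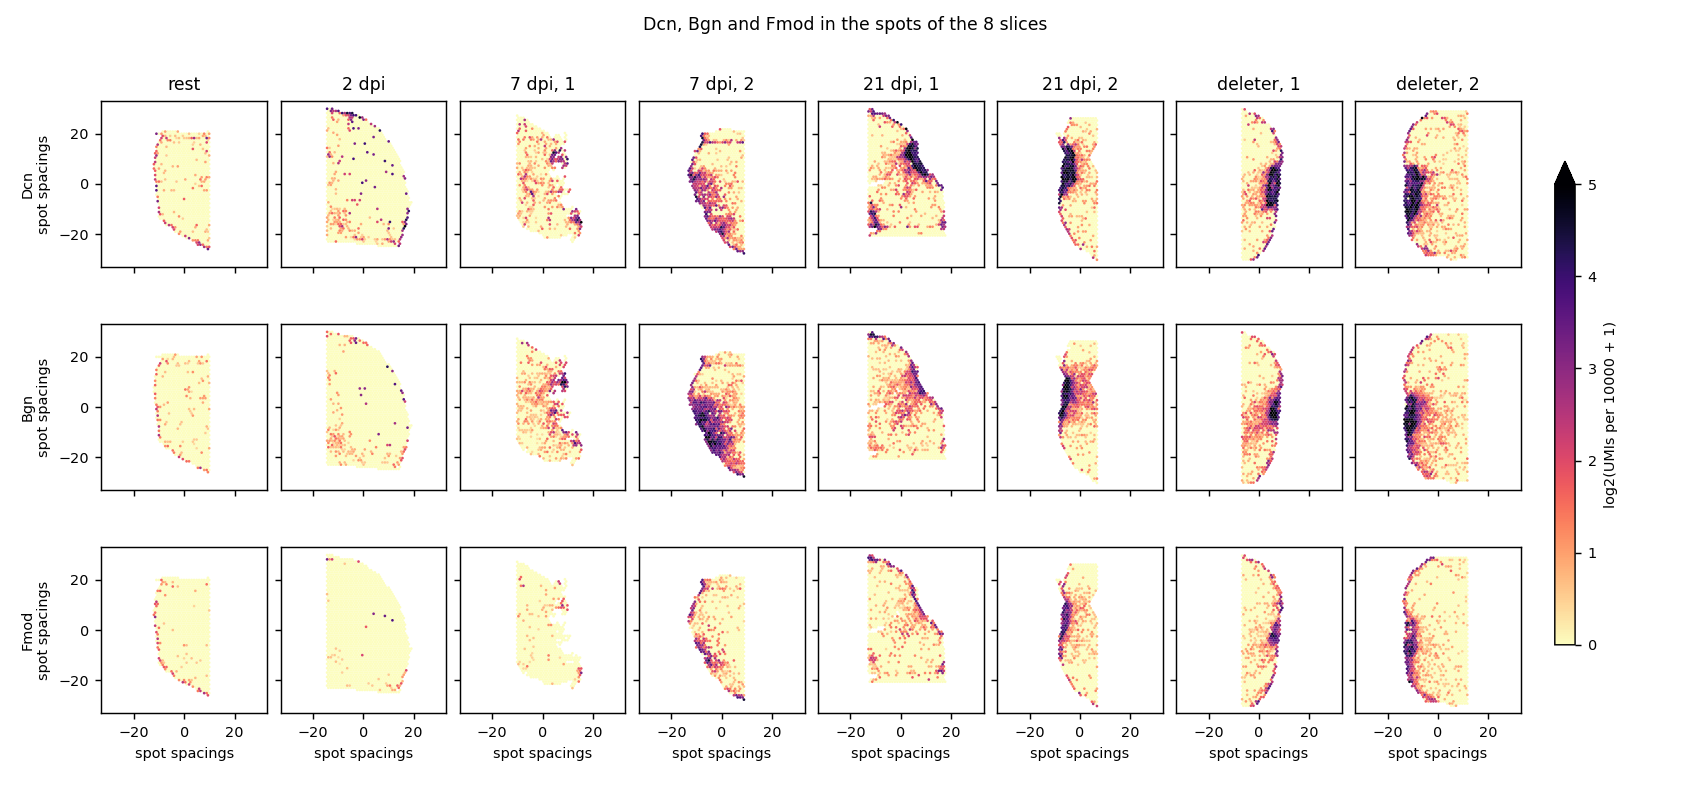
Maps of Dcn, Bgn and Fmod (rows) over the 8 slices (columns), with both axes in spot spacings and colour giving log2(UMIs per 10000 + 1) of each spot from 0 to 5. Darker colours mark higher levels. At 7 and 21 dpi the dark spots of all 3 genes gather among fibrotic spots, and Fmod is darkest along tissue borders. In fibrotic spots Dcn reached 5.11 and 4.55 UMIs per 10000 at 7 dpi and 15.9 and 12.2 at 21 dpi.

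Bgn, the closest relative of Dcn, held 4.23, 7.68, 4.88, 7.81, 6.25 and 7.84 UMIs per 10000 in fibrotic spots of the same 6 slices in the same order, against 0.162 to 0.323 in Col1a1-free spots (log2 fold change 4.81, SE 0.22, adjusted p = 3.57e-07). Its fibrotic levels spanned less than a 2-fold range over the 6 slices, with no separation of 7 from 21 dpi. Aspn, the relative without a sugar chain, held 0.0827 to 0.282 in fibrotic and 0.00908 to 0.0141 in Col1a1-free spots (log2 fold change 4.04, SE 0.25, adjusted p = 1.33e-06).

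In the keratan sulfate class, Lum had the largest fitted difference of the 9 members, 6.09 on the log2 scale (SE 0.32, adjusted p = 6.92e-07). It held 1.87 and 2.76 UMIs per 10000 in fibrotic spots at 7 dpi, 6.14 and 4.80 at 21 dpi and 7.22 and 6.18 in the deleter slices, against at most 0.108 in Col1a1-free spots. Fibrotic and Col1a1-free values of Lum did not overlap, and the folds within a slice ran from 29.5 to 200. Fmod followed with 0.461, 1.74, 2.72, 3.21, 3.07 and 3.85 UMIs per 10000 in fibrotic spots, and its lowest value came from 7 dpi slice 1 (log2 fold change 4.74, SE 0.17, adjusted p = 1.26e-07). Omd, better known from bone, rose by 4.56 (SE 0.30, adjusted p = 1.8e-06) from Col1a1-free levels of 0.00723 to 0.0151.

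Prelp, which links basement membranes to collagen, was the weakest of the class and of all 9 members. It held 0.142 and 0.269 UMIs per 10000 in fibrotic spots at 7 dpi, 1.29 and 0.820 at 21 dpi and 0.911 and 1.01 in the deleter slices. In Col1a1-free spots it held 0.165 and 0.0871 at 7 dpi, 0.317 and 0.112 at 21 dpi, and 0.166 and 0.186 in the deleter slices. Fibrotic spots were thus higher in 5 of 6 slices, and in 7 dpi slice 1 the fold was 0.861. The fit gave 2.07 (SE 0.27, adjusted p = 8.68e-05).

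Ogn, a matrix protein of bone and cornea, held 0.614 and 0.981 UMIs per 10000 in fibrotic spots at 7 dpi, 2.96 and 2.39 at 21 dpi and 2.31 and 2.22 in the deleter slices, against 0.0241 to 0.0858 in Col1a1-free spots (log2 fold change 4.97, SE 0.35, adjusted p = 2.42e-06). Podn, the member with the fewest UMIs, held 0.0236 and 0.0273 at 7 dpi, 0.165 and 0.144 at 21 dpi and 0.105 and 0.176 in the deleter slices. These rest on 2 and 12 UMIs at 7 dpi and 27 to 64 in the later slices, and the fitted change of Podn was 2.63 (SE 0.36, adjusted p = 1.04e-04).

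The count of 9 of 9 stands against a background in which 34.8% of the 14477 genes tested were higher in fibrotic spots and 68.3% differed in either direction. The members and all lists were chosen with earlier results of these data known, so these shares are background and not a test of the family. The median log2 fold change was 4.74 over the members and 0.02 over all genes. All 8 genes on a list of meningeal border fibroblast markers, and all 5 macrophage markers, also rose in these spots, and their part in the result was not tested. Summed border marker levels were 15.1 to 114 UMIs per 10000 in fibrotic against 7.19 to 16.4 in Col1a1-free spots of the 6 slices. Each of the 9 calls stood under all 14 alternatives run, including the removal of any one slice and of the outer 2 rings of spots.

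**Figure D2:**
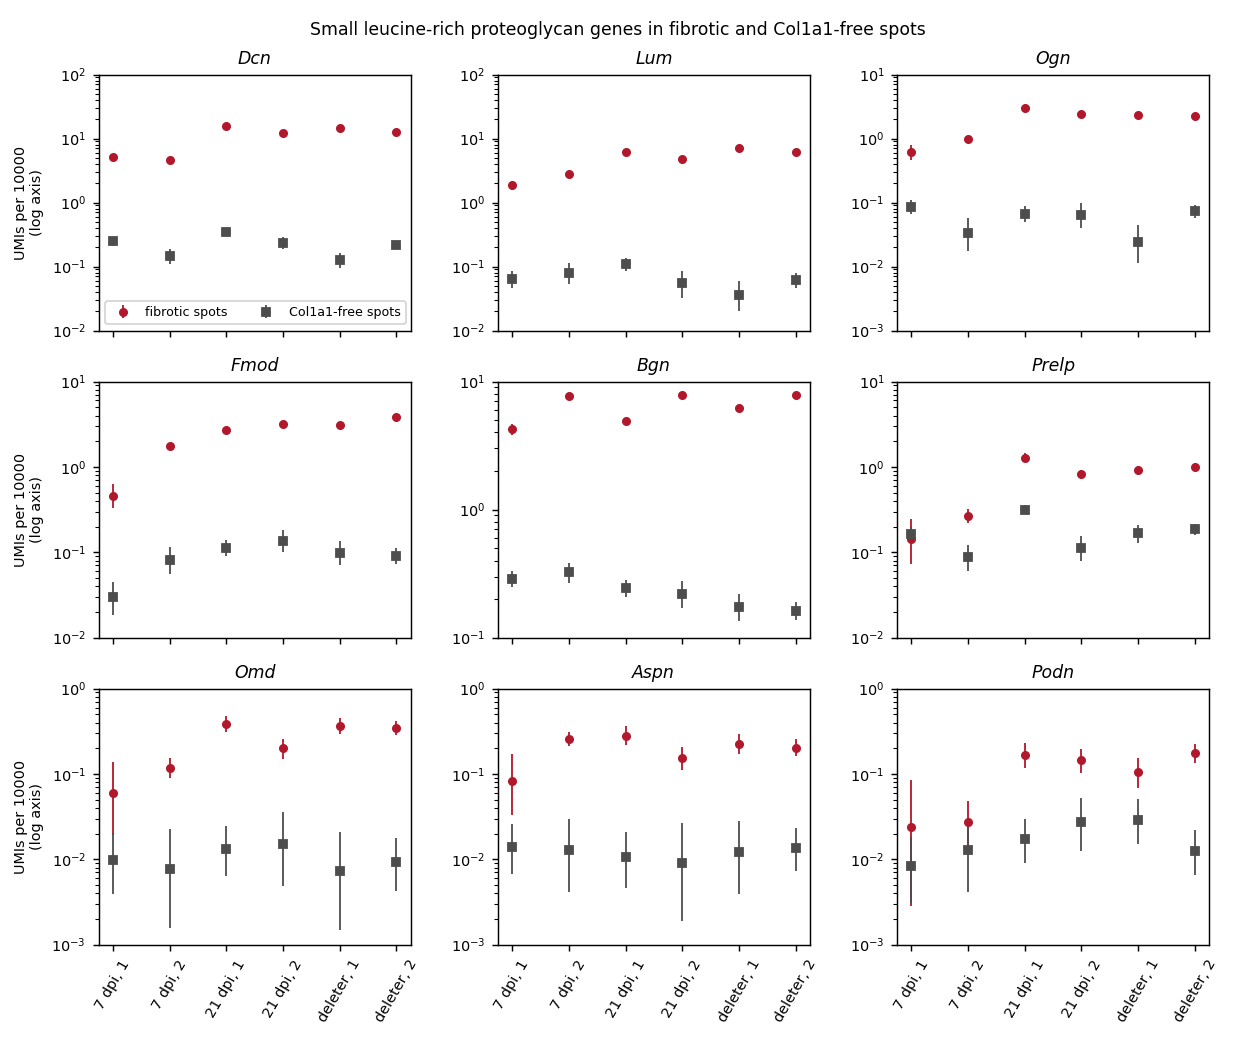
Level of each member in fibrotic spots (red circles) and Col1a1-free spots (grey squares) of the 6 slices at 7 and 21 dpi, in UMIs per 10000 on a log axis, with exact 95% Poisson intervals that cover counting error only. The classes are well apart in every slice for Dcn, Lum, Bgn, Fmod and Ogn, while the intervals of Podn overlap in both slices at 7 dpi and those of Omd and Prelp in 7 dpi slice 1, where the fibrotic level of Prelp, 0.142, lies under the Col1a1-free level of 0.165.

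The members differed in how much of their RNA lay in fibrotic spots. Fibrotic spots held 71.4% and 89.5% of all Dcn UMIs at 21 dpi and 76.4% and 91.5% of all Lum UMIs. For Bgn the shares were 61.4% and 82.3%. For Prelp they were 28.9% and 55.2%, and for Podn 48.1% and 64.1%, so that much of the RNA of this pair lay outside the fibrotic spots. In 21 dpi slice 1, the Col1a1-free spots along the tissue edge held 1.82 Prelp UMIs per 10000, above the 1.29 of its fibrotic spots. No other slice at 7 or 21 dpi showed this. Their Col1a1-free edge spots held 0.0445 to 0.234, each below the fibrotic level of the same slice.

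One step of spots away from fibrosis, levels had dropped steeply. Dcn held 0.892 and 0.712 UMIs per 10000 in the spots next to fibrotic ones at 7 dpi, 2.41 and 1.56 at 21 dpi, and 1.83 and 1.45 in the deleter slices. Bgn held 1.11 to 1.504 there in the 6 slices. These spots hold under 5 Col1a1 UMIs per 10000 but need not be free of it. Prelp declined less than Dcn and Bgn at 21 dpi, to 0.457 and 0.501 at 21 dpi from 1.29 and 0.820.

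Among fibrotic spots, Bgn climbed with Col1a1 through every class of all 6 slices, whereas Dcn was lower in the richest class than in the class before it in 3 of the 4 slices at 21 dpi. Spots with 5 to 10, 10 to 20, 20 to 40 and at least 40 Col1a1 UMIs per 10000 were summed separately. In 21 dpi slice 1 Dcn held 10.3, 23.1, 18.1 and 16.0 in these 4 classes, and in slice 2 it held 3.79, 7.23, 18.7 and 22.3. From 20 to 40 to the richest class it went from 20.1 to 19.1 in deleter slice 1 and from 19.1 to 18.7 in deleter slice 2. In 7 dpi slice 2 it held 1.70, 3.33, 5.004 and 8.58, a climb at every class, and even its richest class stayed under all 4 classes of 21 dpi slice 1. Bgn held 2.37, 5.71, 8.46 and 14.9 in 7 dpi slice 2, 2.31, 3.42, 6.22 and 12.3 in 21 dpi slice 1 and 2.21, 2.97, 6.60 and 18.5 in 21 dpi slice 2. Bgn in 7 dpi slice 2 thus lay above both wild-type 21 dpi slices in the 2 middle classes and between them in the richest. Over all fibrotic spots, Bgn held 29.3 and 25.1 UMIs per 100 Col1a1 UMIs at 7 dpi. It held 22.9 and 18.8 at 21 dpi, and 19.3 and 20.5 in the deleter slices. For Dcn the values overlapped between the times (35.4 and 14.9 at 7 dpi, 74.9 and 29.3 at 21 dpi, 44.4 and 33.3 in the deleter slices). Col1a1 chose these spots, so ratios to it cannot serve to set the times or the members apart. Lum in the richest class held 3.22 and 6.80 at 7 dpi, 12.2 and 10.4 at 21 dpi and 17.7 and 12.8 in the deleter slices. 7 dpi slice 1 had only 5 spots in that class. The classes and the ratios to Col1a1 are a description and were not tested.

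**Figure D3:**
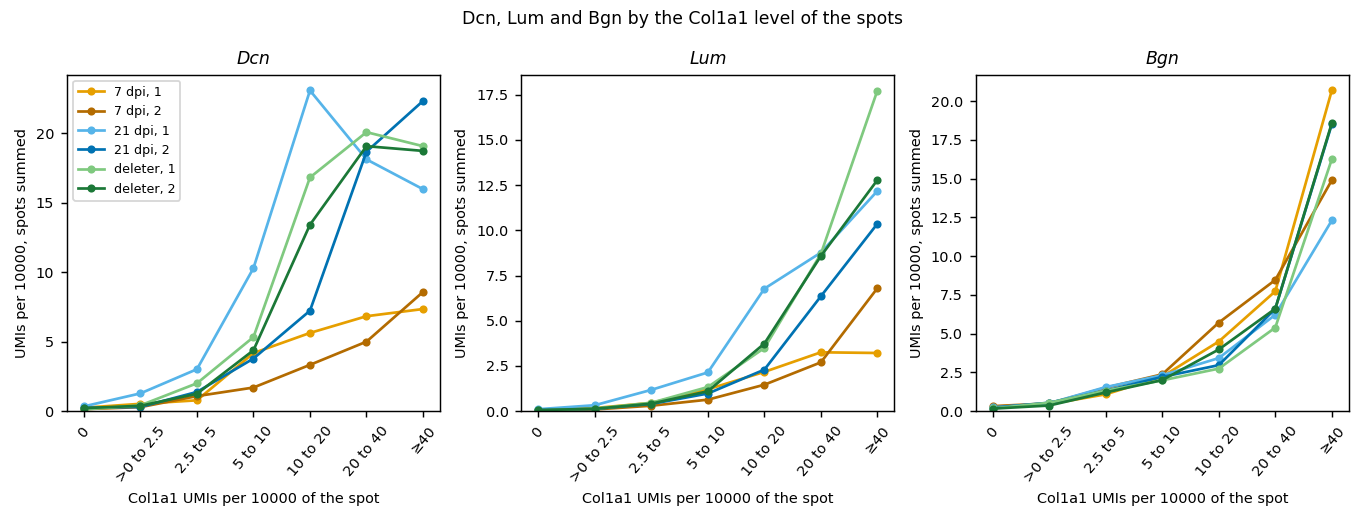
Levels of Dcn, Lum and Bgn in UMIs per 10000 against classes of spots by their own Col1a1 level, 1 line for each of the 6 slices at 7 and 21 dpi. Bgn lines climb to 12.3 to 20.7 in the richest class. Dcn and Lum lines at 7 dpi run below those at 21 dpi in that class (Dcn 7.35 and 8.58 against 16.0 to 22.3).

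From 7 to 21 dpi, 6 of the 9 members rose in fibrotic spots and none fell. Col1a1 changed by 0.45 on the log2 scale (95% interval -0.29 to 1.19, edgeR adjusted p = 0.523). It cannot serve as a contrast to the members, because every fibrotic spot was chosen to hold at least 5 Col1a1 UMIs per 10000. The question here was how fibrotic spots differ between the times. Dcn, at the levels given above, was higher in both slices at 21 dpi than in both at 7 dpi, and rose by 1.52 (SE 0.17, adjusted p = 0.00114). Ogn rose by 1.65 (SE 0.20, adjusted p = 0.00151), and its wild-type groups did not overlap either. Prelp rose by 2.15 (SE 0.27, adjusted p = 0.00194) and Lum by 1.19 (SE 0.19, adjusted p = 0.0075). Podn rose by 2.498 (SE 0.42, adjusted p = 0.00852), on few UMIs. Omd, at 0.0590 and 0.118 UMIs per 10000 at 7 dpi and 0.384 and 0.200 at 21 dpi, passed narrowly (1.43, SE 0.35, adjusted p = 0.0457).

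The members without a call were Fmod, Bgn and Aspn. Fmod differed by 1.28 (SE 0.38, adjusted p = 0.0907), with 0.461 and 1.74 at 7 dpi well apart from each other. Bgn differed by 0.05 (95% interval -0.54 to 0.65, adjusted p = 0.954) and Aspn by 0.01 (-0.83 to 0.86, adjusted p = 0.995). For this pair, changes of up to about those bounds in either direction are within what 2 slices against 2 could miss.

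Over all 13289 genes tested, 4.39% were called in this comparison and 2.5% were higher at 21 dpi. The median was 1.43 over the members and -0.02 over all genes. When library size was set by collagen UMIs in place of all UMIs, none of the 6 calls passed (adjusted p 0.0520 to 0.999), while the log2 fold changes stayed between 1.02 and 2.51. Lum lost its call without 7 dpi slice 1 (adjusted p = 0.0534), Omd without any one of 21 dpi slice 1 or either 7 dpi slice (0.137 to 0.164) and with spots of at least 5000 UMIs only (0.0821), and Podn without 7 dpi slice 2 (0.152) or without the outer 2 rings (0.125). Fmod passed without 7 dpi slice 2 (log2 fold change 2.64, adjusted p = 0.0036), a value more than 1.5 times that with it. It also passed with a Col1a1 minimum of 10 (edgeR adjusted p = 0.0223) and with the deleter slices added to 21 dpi (0.0294). With no filter on low counts Fmod passed too (log2 fold change 1.29). Its SE was then 0.17 in place of 0.38 on the same slices, so a call gained that way carries little weight.

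Other measures moved with this comparison. The border markers Slc47a1, Ptgds and Foxd1 rose by 2.99, 2.19 and 1.30, 3 of the 8 on the list, and their summed level in fibrotic spots was 15.1 and 20.5 UMIs per 10000 at 7 dpi and 98.9 and 59.8 at 21 dpi. The plasma cell genes Jchain and Igkc rose by 8.83 and 8.92, and the 3 genes of that list together held 0.0354 and 0.0205 at 7 dpi against 8.88 and 12.4 at 21 dpi. Of 3 astrocyte markers, Gfap and Aqp4 rose by 1.05 and 1.08, and of 5 macrophage markers Mrc1 and Lyz2 rose by 1.17 and 0.85 and Cd68 fell by 0.56. Summed over the list, astrocyte markers held 9.36 and 10.3 UMIs per 10000 in the 7 dpi slices against 17.7 and 19.5 in the later wild-type slices, and macrophage markers 49.5 and 66.7 against 93.4 and 81.3. The part of these lists in the result was not tested. With the outer 2 rings of spots left out, the rise of Dcn was 2.36 (adjusted p = 0.000767), although 7 dpi slice 1 then held 7 fibrotic spots. Depth differed as well, with medians of 4923.5 and 9206.5 UMIs per fibrotic spot at 7 dpi and 10828 and 13879 at 21 dpi. Its part in the result was not tested. Time and capture area cannot be told apart. The slices at 7 dpi held 1597 and 1281 UMIs of Xist, the transcript of the inactive X chromosome, and those at 21 dpi held 4 and 1, so sex type differed with time as well, and Bgn is X-linked.

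In Col1a1-free spots no member passed between 7 and 21 dpi. Of 7 members tested, 0 were called (edgeR), against 3.14% of all 14149 genes. At an unadjusted p under 0.05 there were 2 of the 7 members and 2524 of the 14149 genes. Omd and Aspn had too few UMIs there to be tested. Fmod differed by 1.23 (adjusted p = 0.196) and Bgn by -0.41 (adjusted p = 0.252). Whether the fibrotic change exceeds that in Col1a1-free spots was tested directly (edgeR), and 0 of 9 members passed, against 3.06% of 14477 genes. An unadjusted p under 0.05 was found for 4 of the 9 members and for 2653 of the 14477 genes. The estimates were 1.67 for Ogn (adjusted p = 0.165), 1.39 for Prelp (0.14), 1.02 for Lum (0.117) and 0.93 for Dcn (0.125). With the outer 2 rings left out, Dcn, Lum and Prelp passed this test (2.39, 1.92 and 2.61, adjusted p = 0.00374, 0.0135 and 0.0168). With a Col1a1 minimum of 10, Dcn, Lum and Ogn passed (1.12, 1.21 and 2.17, adjusted p = 0.0332, 0.0337 and 0.0471). With no filter on low counts Dcn, Lum, Ogn and Prelp did. Their SEs were then 0.21 to 0.31 in place of 0.29 to 0.58 on the same slices, so calls gained that way carry little weight. Dcn also passed without either deleter slice, which shares the estimate of spread (0.0409 and 0.042).

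**Figure D4:**
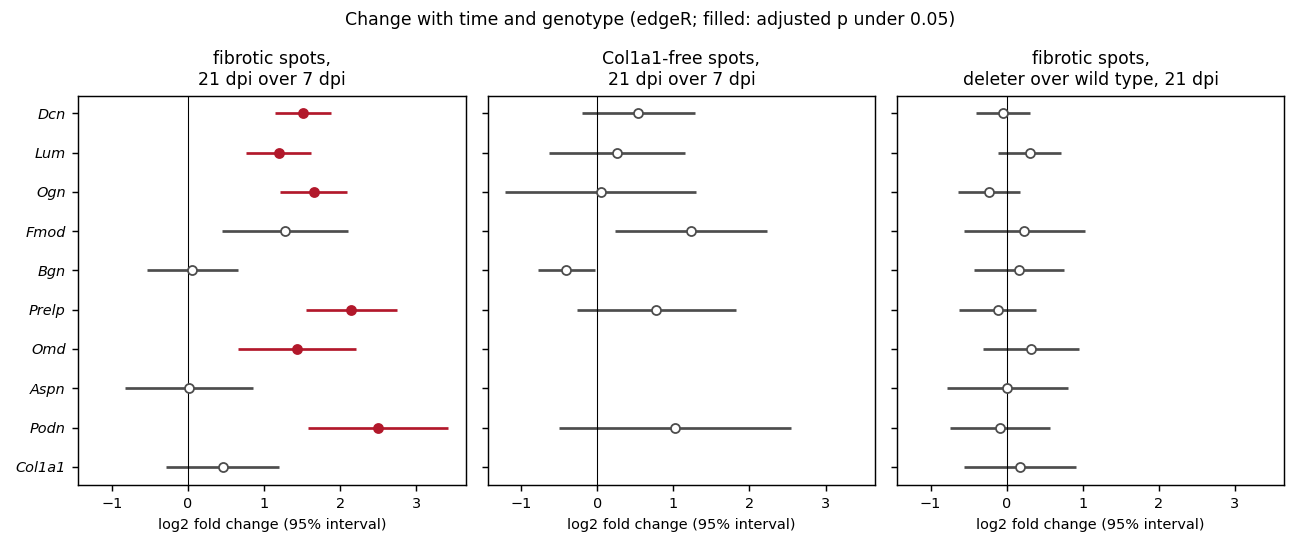
Fitted log2 fold changes of the members with 95% intervals for 21 against 7 dpi in fibrotic spots, the same in Col1a1-free spots, and deleter against wild type at 21 dpi in fibrotic spots, with filled red points for an adjusted p under 0.05 (edgeR). The 6 filled points, Dcn, Lum, Ogn, Prelp, Omd and Podn, are all in the first comparison, while Bgn sits at 0.05.

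The unequal changes altered the make-up of the family. The 9 members together held 12.6 and 18.4 UMIs per 10000 in fibrotic spots at 7 dpi, 34.8 and 31.7 at 21 dpi and 34.8 and 34.5 in the deleter slices. Bgn made up 33.6% and 41.8% of member UMIs at 7 dpi, 14.0% and 24.6% at 21 dpi and 17.9% and 22.7% in the deleter slices. There were 0.827 and 1.69 Bgn UMIs for each Dcn UMI at 7 dpi, and 0.306 and 0.642 at 21 dpi. The ratio was higher in both slices at 7 dpi than in any of the 4 at 21 dpi (deleter 0.435 and 0.617). An exact two-sided permutation test of its log2 gave p = 0.333 for the wild-type slices and p = 0.0667 with the deleter slices added, each the smallest value that so few slices allow, and neither can reach 0.05.

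The difference between outer and inner fibrotic spots varied in size between the members, and no test divided them into classes. Spots were ranked by their distance from the edge of the tissue on the slide, and fibrotic spots of the outer 2 rings were compared with deeper ones within each of the 6 slices, a comparison chosen after the data had been seen. The edge includes the straight sides where the capture area cuts the tissue as well as the brain surface. Fmod held 0.481, 3.88, 5.24, 7.26, 5.31 and 7.11 UMIs per 10000 in the outer fibrotic spots (7 dpi slices 1 and 2, 21 dpi slices 1 and 2, deleter slices 1 and 2), and 0.304, 0.629, 0.983, 1.81, 1.60 and 2.51 in the inner ones. It was higher outside in 6 of 6 slices, by 1.99 on the log2 scale (SE 0.14, adjusted p = 2.02e-07).

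The 3 neighbours on chromosome 13 stood out in the same way. Aspn, with 0.0935 to 0.553 UMIs per 10000 in the outer and 0 to 0.113 in the inner spots, had the largest difference of the 9 (2.63, SE 0.18, adjusted p = 1.45e-07). Omd differed by 2.14 (SE 0.24, adjusted p = 1.46e-05). Ogn held 0.695, 2.27, 5.66, 5.25, 3.85 and 4.24 in the outer spots and 0, 0.315, 1.10, 1.40, 1.29 and 1.39 in the inner ones (2.02, SE 0.16, adjusted p = 3.11e-07). The inner spots of 7 dpi slice 1 number only 7 and hold the zeros. Inner spots held only 0 to 31 Aspn UMIs and 0 to 51 Omd UMIs per slice, so the ranks of Aspn and Omd rest on few UMIs. Among genes not in the family under study here but related to it, Chad, which encodes the cartilage protein chondroadherin, was higher outside by 3.72 (SE 0.37, adjusted p = 4.25e-06).

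Bgn, Lum, Prelp and Podn differed less. Bgn was higher outside by 0.76 (SE 0.13, adjusted p = 0.00100), Lum by 0.78 (adjusted p = 9.03e-04), Prelp by 0.81 (adjusted p = 0.00353) and Podn by 1.31 (adjusted p = 0.00662). With an outer zone of 1 ring, Bgn and Lum no longer passed (0.24 for both, adjusted p = 0.255 and 0.469), nor did Lum with a Col1a1 minimum of 10 (0.38, adjusted p = 0.215) or Podn without 21 dpi slice 2 (0.0521). Col1a1 itself was higher outside by 1.00 (SE 0.12). It chose the outer and the inner spots alike, so it cannot serve as a contrast to the members here either.

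Dcn was the member without a call. It held 5.44, 7.26, 13.3, 14.2, 12.8 and 10.8 UMIs per 10000 in the outer spots and 2.64, 3.14, 17.8, 11.5, 15.4 and 13.5 in the inner spots. The outer level was higher in both slices at 7 dpi, lower in both deleter slices, and split at 21 dpi. The fitted difference was 0.17 (95% interval -0.22 to 0.57, adjusted p = 0.633). The number of Fmod UMIs for each Dcn UMI was higher in the outer spots of 5 of 6 slices, with a mean log2 difference of 1.56 ± 1.07 (SD, n = 6, two-sided exact sign-flip p = 0.0625, where 0.03125 is the smallest possible).

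In all, 8 of 9 members were higher in the outer fibrotic spots, where 6.77% of 12314 genes were higher and 12.5% differed in either direction. The median log2 fold change was 1.31 over the members and 0.01 over all genes. Outer fibrotic spots also had higher border markers (7 of 8 rose, with summed levels of 16.8 to 147 outside and 2.44 to 104 inside) and lower macrophage markers (4 of 5 fell and 1 rose). Of 5 cartilage, bone and tendon markers tested, 3 rose, and the 8 on that list summed to 0.241 to 2.93 outside and 0.101 to 0.726 inside. Their part in the result was not tested.

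**Figure D5:**
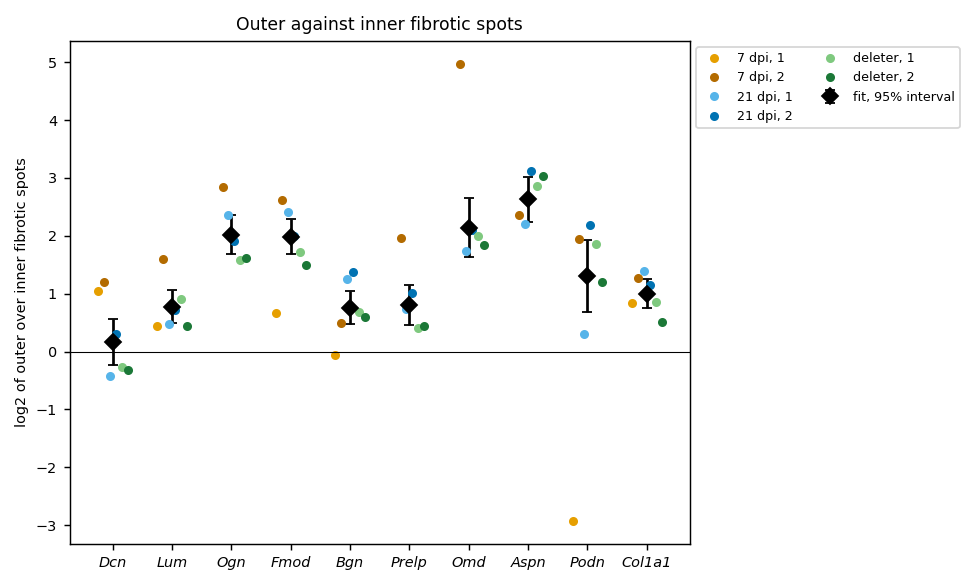
Log2 ratio of the level in outer over inner fibrotic spots for the 9 members and Col1a1, with 1 dot per slice at 7 and 21 dpi and diamonds for the edgeR estimate with its 95% interval. Aspn, Omd, Ogn and Fmod lie at 1.99 to 2.63, Bgn, Lum and Prelp at 0.76 to 0.81, and the interval of Dcn, -0.22 to 0.57, spans 0.

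Omd, Ogn, Fmod and Aspn also had the largest estimates at the tissue edge as a whole. Edge spots, those missing at least 1 of 6 neighbours, were compared with the interior over all 8 slices, rest and 2 dpi included. Of 139 to 227 edge spots per slice at 7 and 21 dpi, 47 to 77 were fibrotic. The ranking is therefore not a separate check on the comparison of outer with inner fibrotic spots. At the edge 8 of 9 members were higher, against 3.06% of 15409 genes. The estimates were 2.42 for Omd (adjusted p = 4.61e-04), 2.41 for Ogn (5.58e-05), 2.08 for Fmod (4.89e-05) and 2.08 for Aspn (9.32e-04). They were 1.25 for Lum, 1.19 for Dcn and 1.01 for Bgn, and 0.82 for Prelp (adjusted p = 0.0484), which was lost in 8 of 14 alternatives. Podn differed by 0.88 (adjusted p = 0.121), and Dcn was lost without 7 dpi slice 2 (0.0578). The median was 1.25 over the members and -0.02 over all genes. All 8 border markers rose at the edge as well. When only Col1a1-free spots were compared, no gene of the whole table passed (0 called by edgeR, 773 at an unadjusted p under 0.05). The estimates there were 1.52 for Ogn, 1.05 for Fmod, 1.01 for Dcn, 1.01 for Lum, 0.65 for Prelp and 0.28 for Bgn, and the other 3 members had too few UMIs to be tested.

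In the slice at rest, the level of every member was higher at the edge than in the interior. For Podn and Aspn this rests on only 4 and 6 UMIs at the edge, against 22 and 26 in the interior. The edge held 69.5% of all Ogn UMIs, 55.1% of those of Fmod and 51.9% of those of Omd, and from 15.4% (Podn) to 46.2% (Dcn) of those of the other 6. Ogn held 0.554 UMIs per 10000 in edge spots and 0.0264 in the interior, a fold of 20.9. The folds were 11.3 for Fmod, 9.88 for Omd, 7.88 for Dcn, 6.55 for Lum and 5.86 for Bgn, and from 1.67 to 2.29 for Podn, Aspn and Prelp. Its 3 fibrotic spots all lay at the edge and held 368 UMIs per 10000 of the border markers. There was 1 slice, so no test applies.

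At 2 dpi, before fibrotic tissue had appeared in number, some members stood above the slice at rest and others below it. Over all spots, Dcn held 0.161 UMIs per 10000 at rest and 0.549 at 2 dpi, Lum 0.0293 and 0.122, Bgn 0.0832 and 0.203, and Prelp 0.0917 and 0.324. Ogn held 0.0783 and 0.141. The 4 others were lower at 2 dpi, Fmod at 0.0654 and 0.0443, Omd at 0.0165 and 0.0153, Aspn at 0.0196 and 0.0153, and Podn at 0.0159 and 0.0107. Omd, Aspn and Podn rest on few UMIs, 27, 32 and 26 at rest and 20, 20 and 14 at 2 dpi. In Col1a1-free spots of at least 5000 UMIs, which leaves out the RNA-poor tissue at 2 dpi, Dcn held 0.108 (95% Poisson interval 0.0923 to 0.125) at rest and 0.246 (0.217 to 0.277) at 2 dpi, and Bgn 0.0635 and 0.167. The intervals of Dcn do not overlap, but they cover counting error only. With 1 slice at each time, the difference has no replicate check. The Dcn UMIs of the fibrotic class at 2 dpi, 76 in all, came from 5 of its 26 spots, all 5 in the outer 2 rings.

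No member passed the test between deleter and wild-type slices at 21 dpi. The slices of the groups did not overlap for 2 members and overlapped for the other 7. The 2 were Ogn (2.96 and 2.39 in wild-type, 2.31 and 2.22 in deleter slices) and Lum (6.14 and 4.80, 7.22 and 6.18). For Lum the nearest values of the groups, 6.14 and 6.18, were almost equal. With 2 slices against 2, groups can readily separate by chance, and the share of all genes that did so was not counted. The separation of these 2 members was therefore not taken as a difference. Cthrc1, whose lineage the deleter allele targets, differed by -0.71 (SE 0.23) in fibrotic spots, with an edgeR adjusted p of 0.727 over 13289 genes. That adjustment covers all genes, so the value does not show that the level of Cthrc1 was unchanged. A level of the gene does not test the deletion of cells that have since stopped expressing it. Of 9 members, 0 were called (edgeR), against 0.0226% of 13289 genes, which is 3 genes. The members' estimates ran from -0.23 for Ogn to 0.32 for Omd, and the widest bounds of their 95% intervals were -0.79 and 1.02. For Dcn the interval was -0.40 to 0.31. Capture area and genotype cannot be told apart here. Sex type differed too, with 1033 Xist UMIs in deleter slice 1, 19 in deleter slice 2, and 4 and 1 in the wild-type slices.

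Other genes of the pathway were taken from lists by role. Of all 14477 genes tested, 34.8% rose in fibrotic spots and 68.3% differed in either direction, and the counts below stand beside these shares. Of 8 further members of the repeat family, 5 had enough UMIs, and all 5 rose in fibrotic spots: Epyc by 6.52, Chad by 4.48, Podnl1 by 4.43, Tsku by 3.48 and Ecm2 by 2.58. Epyc, a neighbour of Dcn and Lum on chromosome 10, and Ecm2, a neighbour of Aspn on chromosome 13, also rose from 7 to 21 dpi (1.83, adjusted p = 0.0091, and 1.58, adjusted p = 0.00444), 2 of 4 tested. Enzymes that build and sulfate chondroitin and dermatan chains rose in 9 of 15 cases and fell in 1 (Chsy3, -1.60). Dse, which turns chondroitin into dermatan sulfate, rose by 3.18, and Chst14, which sulfates dermatan, by 2.76. Of 6 enzymes that start the chain, 1 rose (Xylt2, 0.70), 3 fell (B3gat3, Fam20b and B3galt6, -0.73 to -0.49) and 2 did not pass. Of 3 keratan sulfate enzymes tested, none rose and Chst1 fell by 1.37. Medians were 0.55 for the chondroitin and dermatan list, -0.37 for chain start and -0.24 for keratan sulfate, beside 0.02 over all genes. None of these enzymes passed between 7 and 21 dpi, where 4.39% of 13289 genes were called and 2.5% rose. With so large a share of all genes called in fibrotic spots, the enzyme counts are not taken as a result about the pathway.

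Partners of the proteins were counted in fibrotic spots too, beside the same 34.8% of all genes that rose and 68.3% that differed. Of 11 listed collagen genes, all were higher, but Col1a1 is among them and defined the spots. From 7 to 21 dpi, 1 of 11 rose (Col14a1, 1.80) and 2 fell (Col5a1, -0.93, and Col6a3, -0.90), and the other 8 did not pass. The proteinases that trim matrix precursors and their enhancers rose in 3 of 4 cases (Pcolce 4.31, Tll1 2.77, Bmp1 1.66), and Pcolce2 fell by 1.20. Of 7 growth factors known to bind the family, 5 rose, Tgfb1 by 2.85 and Bmp4 by 2.40. Of 11 receptors, 8 rose and 2 fell, with Tlr4 at 3.06, Egfr at 3.002, Cd44 at 2.92 and Tlr2 at 2.87. For Tgfb1, Bmp4, Cd44 and Egfr the contrast of fibrotic and Col1a1-free spots was itself larger at 21 than at 7 dpi (by 1.46 to 2.29, adjusted p 0.00355 to 0.0246). In fibrotic spots alone, 0 of the 7 growth factors and 0 of the 11 receptors passed between the times (edgeR), while in Col1a1-free spots Tgfb1 fell by 2.16, Cd44 by 1.92 and Tlr2 by 1.86. Macrophage markers moved with them, 4 of 5 falling in Col1a1-free spots and 4 of 5 rising in the difference, and their part in the result was not tested. Of all genes, 3.06% were called for the difference, 4.39% between the times in fibrotic spots and 3.14% in Col1a1-free spots.

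The genes whose spot-by-spot pattern was most like each member were found by Pearson's r of log levels within each of the 6 slices, averaged, over 8165 or 8166 other genes with enough UMIs. These are descriptions, since spots of 1 slice share a library and a depth. Dcn was most like Mgp, a matrix calcification inhibitor (mean r 0.768), then Col1a2 (0.747) and Col3a1 (0.746). Bgn was most like Col1a1 and Col1a2 (0.786 for both), and Lum like Col3a1 (0.745), Col1a2 (0.733) and Dcn (0.732). Ogn and Fmod followed Col1a2 and Col1a1 (0.598 and 0.627 at the top). Prelp stood apart, with Ecrg4 (0.458), Igf2 (0.407) and Lbp (0.354) leading and Col1a1 at rank 31 (0.303). For the sparse Omd, Aspn and Podn the highest mean r was 0.350, 0.362 and 0.241. Within fibrotic spots alone, the closest pairs of members were Dcn with Lum (0.643) and Ogn with Fmod (0.596).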

How the data were processed

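The authors deposited unnormalized UMI counts for each spot of 4 Visium capture areas with the positions of the spots, after alignment to mm10 with Space Ranger 2.0.0. Adjoining tissue spots were joined into 2 pieces per area, each counted as a slice from its own mouse. The first area mixes rest and 2 dpi without a label per piece, and the smaller piece (1017 spots) was taken as rest, as the outlines in the study show. UMIs were summed per slice and class of spots and tested with edgeR 4.0.16 in R 4.3.3 (TMM, filterByExpr, quasi-likelihood test, Benjamini-Hochberg adjustment over all genes, threshold 0.05). Comparisons within slices had the slice as a block. Comparisons of times and genotypes fitted the 6 slices at 7 and 21 dpi together. P-values of comparisons within slices measure how the within-slice difference varies from slice to slice. Those of times and genotypes rest on 2 slices per group from separate mice, with a spread shared by the 3 groups. Alternatives were DESeq2 1.42.0, no filter, no TMM, each slice left out, and other rules for depth, fibrosis, rings and library size. The comparison of outer with inner fibrotic spots was added after seeing the data. The steps were tested on simulated data. The members and all lists were chosen with earlier results of these data known. The genes named are all 9 members, list genes by the size of their change (at most 4 per list) and the 3 most alike genes per member, among genes with at least 200 UMIs and spots with at least 1000. Positions come from GENCODE for GRCm38 and promoters from RefSeq. Intervals for a single slice are exact 95% Poisson intervals, which cover counting error only, and UMI totals are those of the slices. The proteins were not analysed here. Figures were drawn with matplotlib 3.10.9.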

Additional observations from a re-analysis of the deposited data

Results flagged for a closer look

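The ratio of Dcn in outer over inner fibrotic spots was 2.06 and 2.31 in the slices at 7 dpi and 0.830 and 0.801 in the deleter slices at 21 dpi, so every slice of one group lay above 1 and every slice of the other below it. The mean folds differed by 1.42 on the log2 scale. The difference was not tested, 7 dpi slice 1 had 7 inner spots, and the wild-type slices at 21 dpi were split (0.749 and 1.23).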

How the results depend on the processing

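Of the members' values recomputed under alternatives, 739 kept direction and call, 31 lost and 20 gained a call, and 51 changed sign. No member's call in the comparison of fibrotic with Col1a1-free spots was lost. The number of genes called in all moved further. With no filter on low counts, it was 1317 in place of 584 for 21 against 7 dpi in fibrotic spots, 1702 in place of 444 in Col1a1-free spots, 1475 in place of 443 for the difference between both, and 171 in place of 3 for deleter against wild type. With comparison spots taken as all under 5 Col1a1 UMIs per 10000, it was 3 in those spots and 0 for the difference by edgeR (2221 at an unadjusted p under 0.05). With the deleter slices added to 21 dpi it was 1018 and 1121 for fibrotic and Col1a1-free spots. A Col1a1 minimum of 10 gave 867 for the difference, and collagen UMIs as library size gave 120 for 21 against 7 dpi. For deleter against wild type, DESeq2 gave 9, collagen UMIs 11 and no outer rings 7. Edge against interior in Col1a1-free spots alone gave 0 in place of 560. Leaving out 1 slice at a time gave 221 to 633 in fibrotic spots (lowest without 7 dpi slice 1, then 283 without slice 2) and 111 to 332 in Col1a1-free spots (lowest without 21 dpi slice 2, then 222 and 238 without 7 dpi or 21 dpi slice 1) for the times. It gave 128 to 597 for their difference (lowest without 7 dpi slice 2, then 188 and 224 without 7 dpi slice 1 or 21 dpi slice 2), 1 to 93 for the genotypes (1 without either 7 dpi slice, 93 without 21 dpi slice 1, 5 or 6 without a deleter slice), 337 to 830 for the edge (337 and 371 without a deleter slice), 978 to 1623 (1534 with all) for outer against inner (978 and 1003 without deleter slice 2 or 21 dpi slice 1), and 8976 to 9796 (9892 with all) for fibrotic against Col1a1-free.

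The values that changed sign had no call. For 21 against 7 dpi in fibrotic spots, Bgn was -0.30 without 21 dpi slice 2, -0.26 without 7 dpi slice 1, -0.36 without the outer rings and -0.21 by collagen UMIs. Aspn there was -0.45 without 21 dpi slice 1, -0.26 without 7 dpi slice 1, -0.00653 with fibrotic spots chosen by Col1a2 and -0.31 without the outer rings. In Col1a1-free spots, removal of the outer rings gave Dcn -0.023, Lum -0.085, Ogn -0.63 and Prelp -0.32, adding the deleter slices gave Lum -0.0383 and Ogn -0.068, and leaving out 21 dpi slice 1 gave Lum -0.39 and Prelp -0.23. Ogn was -0.38 there without 7 dpi slice 2 and -0.10 with spots of at least 5000 UMIs. With comparison spots under 5, Bgn was 0.11 there and -0.060 for the difference. For deleter against wild type, collagen UMIs gave Lum -0.37, Fmod -0.38, Bgn -0.40, Omd -0.41 and Aspn -0.71, and Col1a2 gave Lum -0.14, Fmod -0.20, Bgn -0.24, Omd -0.0336 and Aspn -0.35. Without 21 dpi slice 1, Dcn was 0.17, Bgn -0.13, Prelp 0.25 and Podn 0.021. Without 21 dpi slice 2, Omd was -0.099 and Aspn -0.38. Without deleter slice 1, Aspn was -0.089 and Podn 0.18, and without deleter slice 2, Dcn was 0.041 and Bgn -0.014. Without the outer rings, Ogn was 0.10, Prelp 0.070 and Aspn -0.25. Aspn was also -0.012 with DESeq2, -0.00506 with no filter, -0.000364 with no TMM, -0.00335 without 7 dpi slice 1 and -0.037 at a minimum of 10. Dcn in outer against inner spots was -0.043 without 7 dpi slice 2, -0.11 at a minimum of 10 and -0.048 with 1 outer ring. Over the settings that left out 1 slice, the values spanned, for 21 against 7 dpi in fibrotic spots, -0.30 to 0.54 (Bgn) and -0.45 to 1.32 (Aspn), and in Col1a1-free spots -0.39 to 0.61 (Lum), -0.38 to 0.93 (Ogn) and -0.23 to 1.35 (Prelp). For deleter against wild type they spanned -0.22 to 0.17 (Dcn), -0.13 to 0.54 (Bgn), -0.099 to 0.85 (Omd), -0.38 to 0.49 (Aspn) and -0.54 to 0.18 (Podn), and for Dcn in outer against inner spots -0.043 to 0.33. The causes were not tested.

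Slices could not be paired between groups, because slices of different groups come from different mice and the labels give no shared replicate numbers. Members with few UMIs, Podn, Omd and Aspn, are limited by depth.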
